A study of Mus musculus with 15 samples.

Results

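The genes described here are 9 transcriptional regulators known from the development of spiral ganglion neurons: Sox4, Sox11, Neurod1, Gata3, Isl1, Pou4f1, Prox1, Runx1 and Eya1. They were taken by symbol from a table of 18536 genes, and all 9 were present and passed the filter on low values. The table came from bulk RNA sequencing of the auditory nerve of mice taken at 3, 7, 14 or 21 days after birth (P3, P7, P14, P21) or from adult animals, with 3 libraries per age. Each library was made from total RNA of nerve tissue microdissected from the cochleae, both cochleae of 1 mouse pooled. The labels give neither strain, genotype, treatment, sex nor the age of the adults, and no group carried a stated deletion or treatment. The titles of the adult libraries carry CTRL, and what they were controls for is not stated in the sources used here.

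Spiral ganglion neurons relay sound from the hair cells to the brainstem. They leave the otic epithelium in the embryo under Eya1, Neurog1 and Neurod1, and then depend on factors such as Gata3, Isl1 and Pou4f1 for their survival, wiring and identity. After birth the dissected nerve also holds Schwann cells, fibroblasts, leukocytes and remnants of the cochlear epithelium, and several of the 9 genes are known to be active in those cells as well. In bulk tissue, fewer cells of a type and less RNA per cell cannot be told apart, which holds for every change below.

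The libraries held between 35250155 and 42258738 reads counted to genes, recovered from the deposited values. All 9 genes lie on the minus strand of mouse build mm10. Coordinates are those of the deposited table, each from the first to the last base of the gene as listed there. The GENCODE M21 annotation used further below has other ends for genes such as Sox4, Prox1 and Gata3. For Sox4 it reaches from 28948919 to 28953713 on chromosome 13. Levels are normalized read counts, that is, reads divided by 1 size factor per library, and 3 reads corresponded to a level between 2.53 and 3.65. Changes are log2 fold changes of the level plus 1 with their standard error (SE), from 1 limma fit to all 15 libraries, and a gene is said to have risen or fallen at a Benjamini-Hochberg adjusted p under 0.05 over 16723 genes. The p-values measure the spread between single mice. A female pattern (Xist above the Y-linked Eif2s3y) was found in 4 libraries: adult replicate 3, replicates 1 and 2 of P21, and P14 replicate 1. Some of the others held both transcripts, most so adult replicate 2 (Xist at 1107 beside Eif2s3y at 1707), and the cause was not tested. At P21, replicate 2 was the least like the others of its age (r of 0.970 and 0.971 across genes). At P14, replicate 3 stood apart in 5 oligodendrocyte genes, picked after the values were seen. Their sum was 24439 in it, beside 1523 and 5945 in replicates 1 and 2. The part of such tissue in the levels of the 9 factors was not tested. Defining transcripts of the ganglion neurons were abundant at each age, for example the vesicular glutamate transporter Slc17a7 at 3115 ± 685 (SD, n = 3) at P3 and 26686 ± 2955 in adults.

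Sox4, Sox11 and, at P7 alone, Gata3 stood high in the young nerve, whereas Pou4f1, Prox1 and Runx1 reached their highest means in adults. From P3 to P7, 5 of the 9 factors changed (Gata3 and Isl1 rose, Pou4f1, Runx1 and Eya1 fell), beside 28.1% of all genes tested (15.4% rose and 12.8% fell). Between P7 and P14, the week in which mice begin to hear, 6 changed beside 48.1% of all genes (24.3% rose and 23.8% fell): Pou4f1, Prox1 and Runx1 rose and Sox4, Sox11 and Gata3 fell. From P14 to P21, Sox4 fell and the other 8 did not pass the test, beside 9.29% of all genes (3.29% rose and 6% fell). From P21 to adult, 4 rose (Prox1, Pou4f1, Runx1 and Eya1) and none fell, beside 49.4% of all genes (25.4% rose and 24.1% fell). Over the whole span from P3 to adult, Prox1, Pou4f1, Isl1 and Runx1 rose and Sox4 and Sox11 fell, 6 of 9 beside 68.7% of all genes (34.4% rose and 34.3% fell). The counts are thus near the background from P14 to P21, from P21 to adult and over the whole span. The median change of the 9 was small in all 5 comparisons, from -0.32 (P7 against P3) to 0.18 (adult against P21), against -0.02 to 0.00 for all genes. In the joint test over the 5 ages, 8 of 9 differed, again near the share of all genes (85.4%), with Neurod1 the exception (adjusted p = 0.468).

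**Figure D1:**
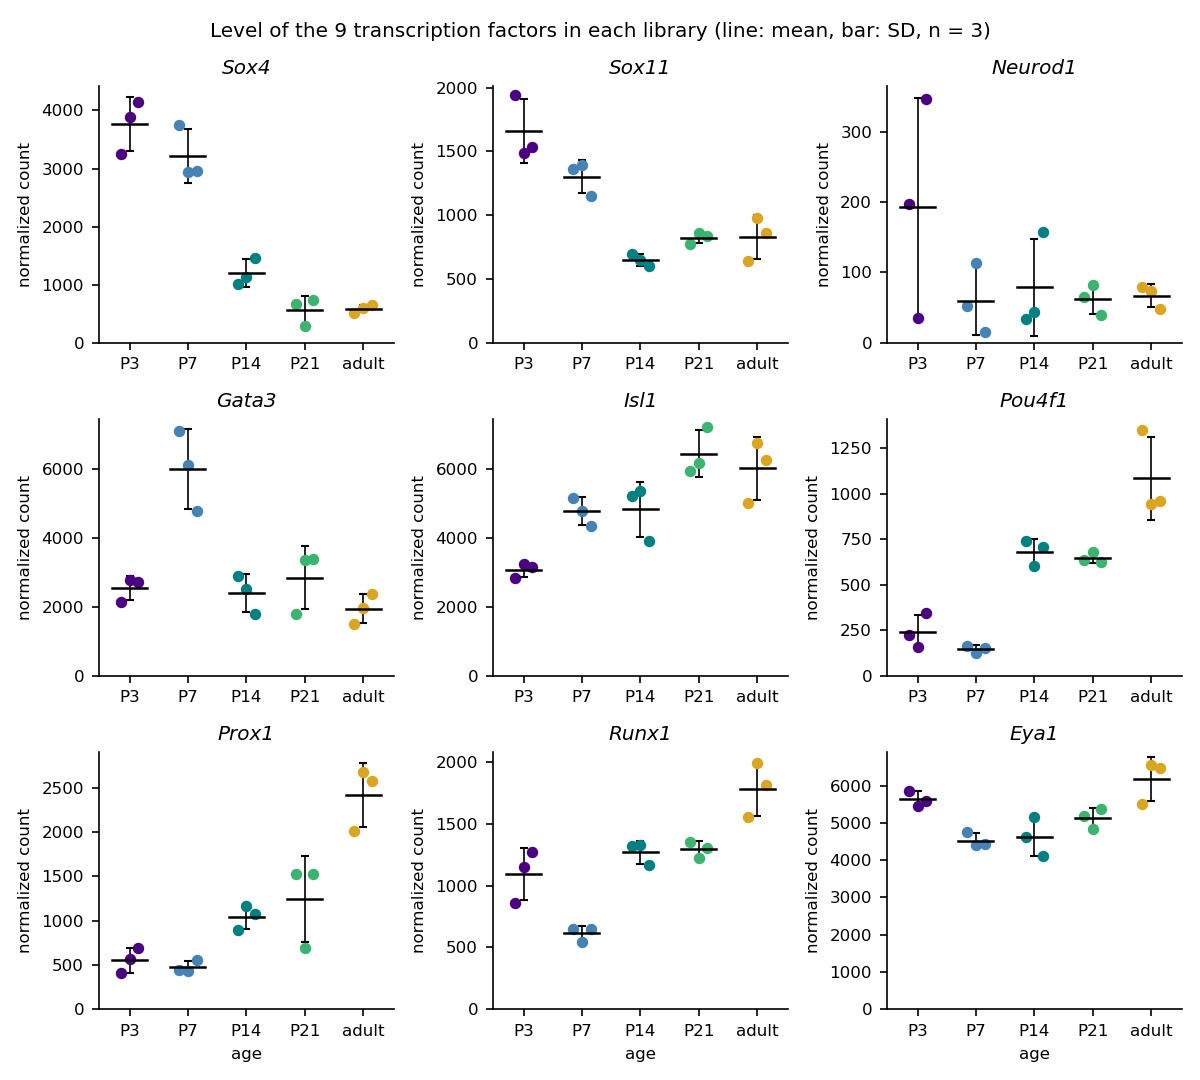
Normalized read count (vertical axis, linear, from 0) of each factor by age (horizontal axis), with 1 point per library, a line at the mean and a bar for the SD (n = 3). Sox4 and Sox11 step down between P7 and P14, Gata3 is high at P7, and the adult libraries of Prox1, all at 2007 or more, lie above those of every younger age.

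**Figure D2:**
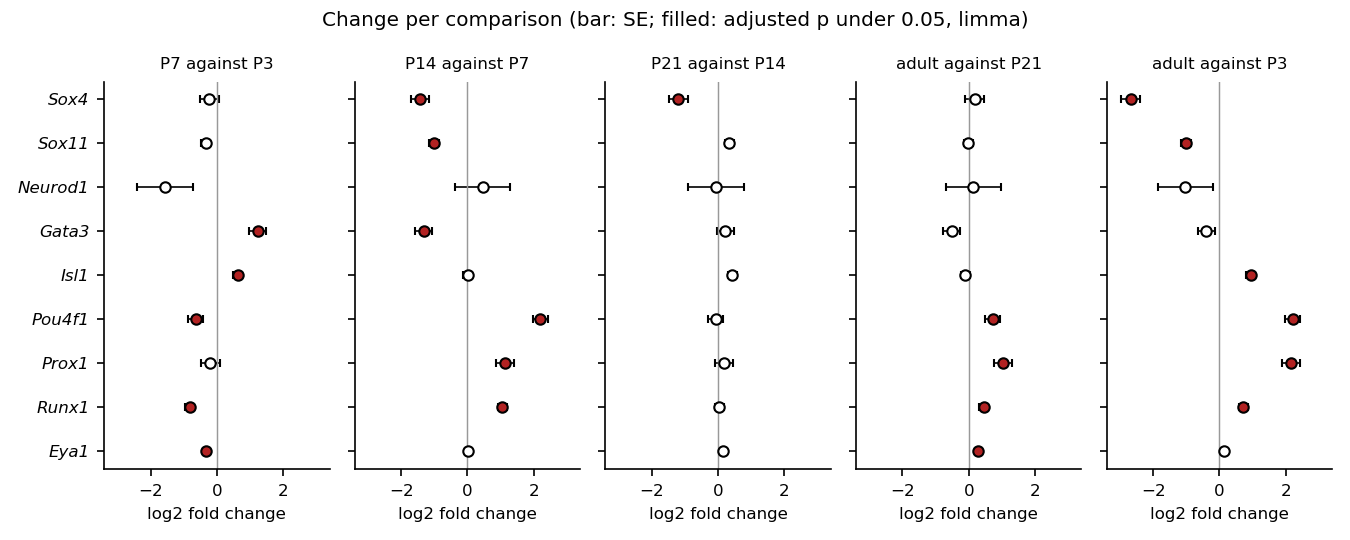
Log2 fold change (horizontal axis) of each factor in 5 comparisons of ages, with bars for the SE and filled points where the limma adjusted p was under 0.05. The comparison of P14 with P7 holds 6 filled points, 3 on each side of 0, and that of P21 with P14 holds 1 (Sox4).

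Sox4 and Sox11 are the SoxC factors of immature neurons and many other growing cells, and are single-exon genes on the minus strand in the annotation. They are near copies in the DNA-binding HMG box, so it matters for the counts whether reads could be shared. The most alike stretches of 210 bases of their coding sequences are printed here because they lie in that box and show where the 2 genes can be told apart. They are given in the direction of transcription from GENCODE M21 (GRCm38), with the differing bases in capitals.
Sox4, chr13:28952632-28952841: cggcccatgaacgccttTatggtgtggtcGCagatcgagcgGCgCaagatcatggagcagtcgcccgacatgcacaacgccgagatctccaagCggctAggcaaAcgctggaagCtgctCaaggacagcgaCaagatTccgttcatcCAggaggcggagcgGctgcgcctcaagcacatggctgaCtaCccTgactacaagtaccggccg
Sox11, chr12:27342049-27342258: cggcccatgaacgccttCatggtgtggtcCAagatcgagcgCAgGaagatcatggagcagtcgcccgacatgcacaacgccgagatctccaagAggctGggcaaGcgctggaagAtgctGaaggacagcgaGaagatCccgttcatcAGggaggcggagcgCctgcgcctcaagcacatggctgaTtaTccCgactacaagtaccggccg
Of the 210 bases, 191 (91%) were identical, and the longest run shared by the whole transcripts (4795 and 8311 bases) was 48 bases. A further limit concerns Sox4 alone. Of its span in the table (2953 bases, chr13:28950730-28953682), 31.9% lies under an exon of Gm26735, a noncoding RNA on the opposite strand, as do 54.6% of its annotated exon bases, and the use of strand in counting is not given in the sources used here.

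The levels of Sox4 were 3257, 3884 and 4153 at P3, and 3751, 2947 and 2950 in the P7 libraries. At P14 its levels were 1004, 1123 and 1465, at P21 663, 279 and 740, and in adults 518, 596 and 648. The P14 libraries all lay below the P3 and P7 libraries, and the P21 and adult libraries lay below those of P14. Sox4 fell by 1.43 ± 0.28 on the log2 scale from P7 to P14 (limma adjusted p = 0.000983) and by 2.68 ± 0.28 from P3 to adult (adjusted p = 1.72e-06), or 6.39-fold. Between P3 and P7 the change was -0.23 ± 0.28 (adjusted p = 0.578), with overlapping libraries.

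The further fall of Sox4 from P14 to P21 (-1.20 ± 0.28, adjusted p = 0.0197) leaned on particular libraries. It was -0.75 (adjusted p = 0.0138) without P21 replicate 2, the low library. It did not pass the test without P14 replicate 3 (-1.04, adjusted p = 0.0929), without the 4 libraries of the female pattern (-0.79, adjusted p = 0.0673) or in a fit of those ages alone (adjusted p = 0.192). The levels of P21 and adults were not told apart (0.18 ± 0.28, adjusted p = 0.617, 95% confidence interval -0.43 to 0.79), and without P21 replicate 2 the sign of this value turned (-0.26, adjusted p = 0.224).

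Sox11 (chr12:27334268-27342718) fell in the same interval as Sox4, and the pairs among P14, P21 and adult did not pass the test with all libraries. Its levels were 1945, 1486 and 1538 at P3, 1363, 1390 and 1151 at P7, and 697, 645 and 601 at P14. At P21 they were 773, 856 and 833, and in adults 641, 980 and 858. All libraries from P14 on lay below all those of P3 and P7. From P7 to P14 Sox11 fell by 1.003 ± 0.15 (adjusted p = 8.42e-05), and from P3 to adult by 1.01 ± 0.15 (adjusted p = 3.1e-05). P3 and P7 were not told apart (-0.34 ± 0.15, adjusted p = 0.0956), although the call was gained without adult replicate 1 (adjusted p = 0.0435). Among P14, P21 and adult, the pair P14 against adult passed the test without adult replicate 1 (0.50, adjusted p = 0.00801, against 0.0749 with all libraries). From P3 to adult the fall was 6.39-fold for Sox4 and 2.02-fold for Sox11, a difference between genes that was not tested.

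The stretches upstream of the pair are printed because the genes fell together. They are from RefSeq (GRCm38.p6), on the minus strand in the direction of transcription, and end at the annotated start. Annotated exon bases are left out, and capitals mark E-boxes (CANNTG, its own reverse complement), the sequence bound by basic helix-loop-helix proteins such as Neurod1.
Sox4, chr13:28953714-28953949: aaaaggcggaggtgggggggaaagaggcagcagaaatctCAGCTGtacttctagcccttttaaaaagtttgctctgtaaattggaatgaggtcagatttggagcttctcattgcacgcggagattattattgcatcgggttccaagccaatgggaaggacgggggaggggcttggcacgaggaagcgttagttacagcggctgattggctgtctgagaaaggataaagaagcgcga
Sox11, chr12:27342719-27342968: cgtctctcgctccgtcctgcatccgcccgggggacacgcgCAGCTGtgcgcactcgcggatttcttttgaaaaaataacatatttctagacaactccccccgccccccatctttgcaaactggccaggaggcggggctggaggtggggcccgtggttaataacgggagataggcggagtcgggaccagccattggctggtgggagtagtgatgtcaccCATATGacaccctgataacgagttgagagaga
An E-box was found in the windows of 7 of the 8 factors with an entry (Gata3 had none), beside 66.2% of all 32817 windows of 250 bases, so its presence is common. A CCAAT box, searched on both strands, was in the windows of Isl1, Runx1, Sox4 and Sox11, beside 33.8% of all windows. Eya1 had no entry.

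Neurod1 (chr2:79452641-79456636) encodes a basic helix-loop-helix factor that ganglion neurons need as they form. It was the lowest of the 9 by level per kilobase of exon at each age but P3, at 21.97 ± 18.2 (SD, n = 3) at P7 and 24.5 ± 5.93 in adults. In normalized counts it was at 197, 35.1 and 347 at P3, at 51.5, 113 and 15.03 at P7, and at 34.1, 43.9 and 158 at P14. The P21 libraries were at 64.6, 82.2 and 39.1 and the adult ones at 79.1, 73.3 and 48.6. All ages overlapped, and the spread among the P3 libraries covered nearly the whole range of the other ages. The change from P3 to P7 was -1.56 ± 0.84 (adjusted p = 0.18, 95% confidence interval -3.37 to 0.24), so a fall of several-fold cannot be told from no change. Of its annotated exon bases, 7.37% are shared with Cerkl on the same strand. Without P3 replicate 2, the lowest of its age, the value was -2.52 (adjusted p = 0.0358), and from P3 to adult -1.98 (adjusted p = 0.0367) in place of -1.03 (adjusted p = 0.29).

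From P3 to P21 the order of Neurod1 within an age went with genes of hindbrain neurons, and in adults only in part. These genes were picked after the values were seen: Pax6, Zic1, Zic2, Zic4, Barhl1, Cbln1, Gabra6 and Neurod2, known from the cochlear nucleus and cerebellum, into which the central end of the nerve leads. The library with the most Neurod1 was also the highest of its age for 7 of these 8 genes at P3, P7 and P14, for 8 at P21 and for 6 in adults. The library with the least was the lowest for 8, 7, 5, 6 and 1 of them at the 5 ages in order. At P3 the summed level of the 8 was 8757, 5089 and 8988 in replicates 1 to 3, beside 197, 35.1 and 347 for Neurod1. The part of such tissue in the level of Neurod1 was not tested. The genes whose pattern was most like that of Neurod1 over 15 libraries were Pax6 (Pearson r 0.808), Zic4 (0.797) and Zic1 (0.790), a likeness from the same libraries given without a test. Each of them is among the 8 genes above, so this likeness and the shared order within ages are not independent observations.

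Gata3 (chr2:9857078-9878600), a zinc-finger factor whose haploinsufficiency causes deafness, rose and fell within the first weeks. Its levels were 2149, 2765 and 2710 at P3 and 7086, 6126 and 4767 at P7. At P14 they were 2907, 2509 and 1802, at P21 1806, 3348 and 3397, and in adults 1517, 1955 and 2359. The P7 libraries stood above all others, and the remaining 4 ages overlapped. Gata3 rose by 1.23 ± 0.26 from P3 to P7 (adjusted p = 0.00362) and fell by 1.33 ± 0.26 from P7 to P14 (adjusted p = 0.000796). Adults did not pass the test against P3 (-0.40 ± 0.26, adjusted p = 0.177) or P21 (-0.52 ± 0.26, adjusted p = 0.108). The second of these was called without P21 replicate 1 (-0.82, adjusted p = 0.0112), and both were called without the 4 libraries of the female pattern (-0.55, adjusted p = 0.0351, and -0.98, adjusted p = 0.0326).

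Gata2, the closest relative of Gata3, also rose to P7 and fell to P14: 2968 ± 363 at P3, 6410 ± 926 at P7 and 3891 ± 401 at P14, a rise of 1.11 ± 0.14 (adjusted p = 0.000149) and a fall of 0.71 ± 0.14 (adjusted p = 0.000947). At P14 it was still above P3 (0.39 ± 0.14, adjusted p = 0.0282), and the difference between the 2 genes was not tested. Zfpm1, which encodes the cofactor FOG1 of GATA proteins, was at 1019 ± 123, 1792 ± 79.5 and 929 ± 17.1 (up 0.82 ± 0.13, then down by 0.95 ± 0.13, adjusted p = 0.000769 and 6.29e-05). The paralogous cofactor Zfpm2 did otherwise, with 523 ± 105 at P3 and 2470 ± 513 in adults (up 2.23 ± 0.17, adjusted p = 8.27e-08). Gata2, Zfpm1 and Zfpm2 belong to the list of relatives described below and were singled out after their values were seen.

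Gata3 is also known from hair cells and supporting cells, and markers of that epithelium were read beside it. The summed level of 13 cochlear epithelium genes ranged from 128288 to 156613 at P3, from 162313 to 263668 at P7 and from 19086 to 23803 at P14. Tectb, a tectorin of the tectorial membrane, supplied most of it, with 82890 to 94152 at P3 and 117858 to 207225 at P7. The sum of the other 12 genes was no higher at P7 (44455 to 58024) than at P3 (45398 to 62461), and lay between 17234 and 21373 at P14. Of the 13 genes, 3 rose (Tectb, Otoa and Lfng) and 2 fell (Fgfr3 and Hes5) from P3 to P7, beside 15.4% and 12.8% of all genes. From P7 to P14, 6 fell and none rose, beside 23.8% of all genes that fell (no gene among all 13 was at 0 at P7). Within P7 the library lowest in Gata3 (replicate 6) was also the lowest in the sum of 13, whereas the highest in Gata3 was replicate 4 and the highest in the sum replicate 5. The part of the epithelium in the peak of Gata3 was not tested. The sums of P3 lay well above those of P14, while Gata3 did not pass the test between those ages (-0.10 ± 0.26, adjusted p = 0.764, and 0.10 without P14 replicate 3).

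**Figure D3:**
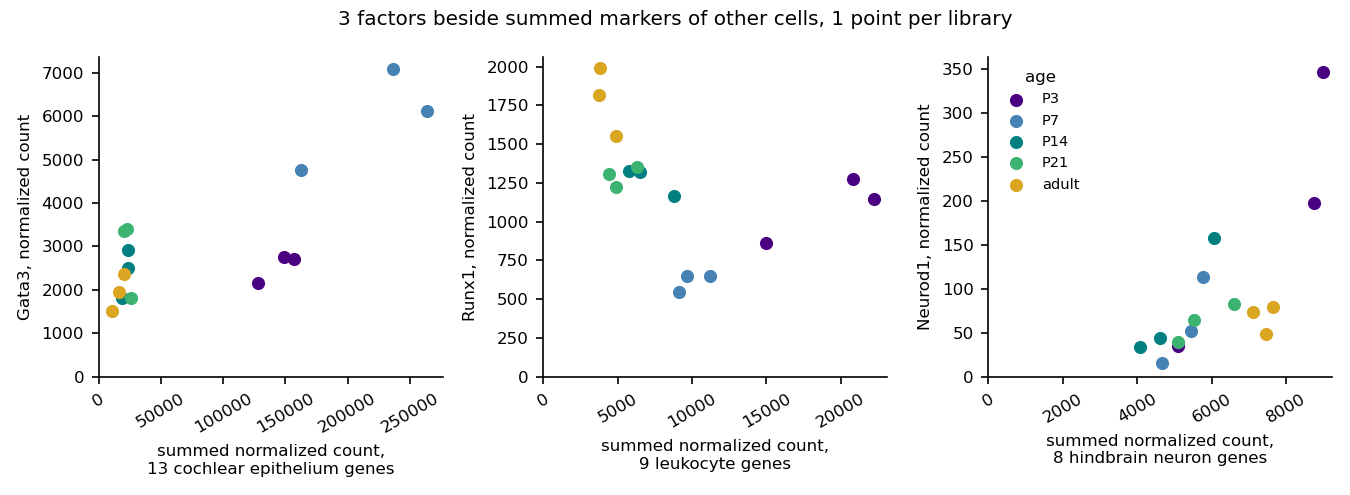
Normalized count of Gata3, Runx1 and Neurod1 (vertical axes) beside the summed normalized count of marker genes of other cells (horizontal axes), with 1 point per library coloured by age. The 3 P7 libraries are highest in both Gata3 and the epithelium sum, most of which is Tectb, Runx1 is highest in the adult libraries, whose leukocyte sums (3756 to 4907) lie far below those of P3, and the P3 library lowest in Neurod1 is the lowest of its age in hindbrain genes.

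Isl1 (chr13:116298270-116309688), a LIM-homeodomain factor of sensory neurons and of the prosensory epithelium, rose early and stayed high. Its levels were 2845, 3228 and 3159 at P3, 5162, 4786 and 4343 at P7 and 5212, 5357 and 3899 at P14. At P21 they were 5932, 6160 and 7212, and in adults 5005, 6751 and 6256. Each P3 library lay below each library of the later ages. The rise from P3 to P7 was 0.63 ± 0.14 (adjusted p = 0.00449) and that from P3 to adult 0.95 ± 0.14 (adjusted p = 2.8e-05), or 1.94-fold. P7 and P14 were not told apart (0.01 ± 0.14, adjusted p = 0.971, 95% confidence interval -0.29 to 0.30). The step from P14 to P21 (0.43 ± 0.14) missed the threshold with an adjusted p of 0.0681, and passed it with quantile normalization (0.0465), with DESeq2 (0.0287) and without adult replicate 1 (0.0487). Its relative Isl2 rose later, from P7 to P14 (0.58 ± 0.12, adjusted p = 0.00172), and reached 663 ± 44.1 in adults from 237 ± 19.8 at P3. Isl2 was named after its values were seen.

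Pou4f1 (chr14:104462325-104467999), a POU-homeodomain factor known from a subset of type I ganglion neurons, made the largest step of the 9 between P7 and P14. Its levels were 222, 160 and 343 at P3, 164, 127 and 154 at P7 and 737, 602 and 704 at P14. At P21 they were 634, 680 and 626, and in adults 1346, 943 and 959. The P14, P21 and adult libraries all lay above those of P3 and P7, and the adult libraries above those of P21. From P7 to P14 Pou4f1 rose by 2.19 ± 0.22 (adjusted p = 4.11e-06), or 4.57-fold, and from P3 to adult by 2.21 ± 0.22 (adjusted p = 1.1e-06). P14 and P21 were not told apart (-0.07 ± 0.22, adjusted p = 0.88). The rise from P21 to adult was 0.72 ± 0.22 (adjusted p = 0.0173), and was lost without adult replicate 1 (0.56, adjusted p = 0.0781) and without the 4 libraries of the female pattern (0.85, adjusted p = 0.141).

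The fall of Pou4f1 from P3 to P7 (-0.64 ± 0.22, adjusted p = 0.0487) was at the edge of the threshold, and the groups overlapped. It was lost in 18 of 26 alternatives, with adjusted p between 0.00887 and 0.207 over all of them. Without P3 replicate 3, the highest library, the value was -0.35 (adjusted p = 0.207).

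Its relative Pou4f2 rose as well, from 217 ± 38.4 at P7 to 844 ± 96.4 at P14 and 1435 ± 173 in adults (up 1.97 ± 0.16 from P7 to P14, adjusted p = 6.23e-07). From P3 to P7 it did not pass the test (-0.33 ± 0.16, adjusted p = 0.149). Pou4f2 was named after its values were seen. The genes most like Pou4f1 over the 15 libraries were the neurofilament gene Nefm (r = 0.988), Ggt7 (0.987) and the acetylcholinesterase gene Ache (0.987). Nefm was at 12139 ± 619 at P7, 52567 ± 6613 at P14 and 73932 ± 5375 in adults.

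Prox1 (chr1:190121777-190170680), a homeodomain factor of ganglion neurons, supporting cells and lymphatic endothelium, rose from P7 to P14 and again from P21 to adult. Its levels were 405, 560 and 690 at P3, 437, 425 and 559 at P7 and 889, 1161 and 1071 at P14. At P21 they were 1526, 686 and 1521, and in adults 2007, 2673 and 2576. The adult libraries stood above all others, and the P14 libraries above those of P3 and P7, while P21 replicate 2 reached back to the P3 range. The rise from P7 to P14 was 1.14 ± 0.28 (adjusted p = 0.00418), that from P21 to adult 1.04 ± 0.28 (adjusted p = 0.00815), and that from P3 to adult 2.15 ± 0.28 (adjusted p = 1.11e-05), or 4.45-fold.

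From P14 to P21 the change was 0.18 ± 0.28 (adjusted p = 0.736), and without P21 replicate 2 it was 0.56 ± 0.20 (adjusted p = 0.0956). The late rise of Prox1 was smaller without that library (0.66, adjusted p = 0.0226), so that the values of both intervals were then close. It was not called without the 4 libraries of the female pattern (0.61, adjusted p = 0.163), a fit in which P21 keeps 1 library. The summed level of 6 lymphatic endothelium genes was between 4612 and 5435 at P3 and between 5700 and 7275 in adults. Reln, an extracellular glycoprotein that other cells make too, carried this sum (4297 to 5857 in adults), and of the other 5 genes Lyve1, Mmrn1 and Pdpn fell from P3 to adult. Lyve1, the defining receptor, was between 319 and 571 at P3 and between 87.5 and 184 in adults. From P21 to adult, the interval of the late rise, Flt4 (106 to 171 at P21, 203 to 323 in adults) and Reln rose and Pdpn fell. The part of lymphatic endothelium in the rise of Prox1 was not tested. Prox1 differed 5.10-fold between P7 and adult, and over the 15 libraries Inf2 (r = 0.987), Kidins220 (0.984) and Flywch1 (0.984) were the genes most like it.

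Runx1 (chr16:92601466-92826074), a Runt-domain factor of blood cells that is also known from subsets of type I ganglion neurons, dipped at P7 and then rose. Its levels were 863, 1147 and 1276 at P3, 652, 547 and 651 at P7 and 1323, 1325 and 1164 at P14. At P21 they were 1355, 1224 and 1308, and in adults 1555, 1991 and 1814. The P7 libraries were the lowest of all and the adult ones the highest. Runx1 fell by 0.81 ± 0.14 from P3 to P7 (adjusted p = 0.000902), rose by 1.04 ± 0.14 from P7 to P14 (adjusted p = 3.14e-05) and did not pass the test from P14 to P21 (0.03 ± 0.14, adjusted p = 0.919). The rise from P21 to adult (0.46 ± 0.14, adjusted p = 0.0138) was lost without adult replicate 2 (0.38, adjusted p = 0.0618) and without the 4 libraries of the female pattern (0.43, adjusted p = 0.206). From P3 to adult the rise was 0.72 ± 0.14 (adjusted p = 0.00034).

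Leukocyte transcripts went the other way over the span. The sum of 9 leukocyte genes ranged from 14940 to 22198 at P3, from 9085 to 11184 at P7, from 5758 to 8806 at P14 and from 3756 to 4907 in adults. From P3 to adult 8 of the 9 fell and none rose, beside 34.3% of all genes that fell. Among the 8 was Spi1 (626 to 905 at P3, 74.4 to 113 in adults), the myeloid factor that is a partner of Runx1 in blood cells. From P3 to P7, when Runx1 fell, 5 of the 9 fell as well, beside 12.8% of all genes. The part of leukocytes in that fall of Runx1 was not tested. From P7 to P14 Runx1 rose while 3 of the 9 fell and none rose, and from P21 to adult it rose while 5 of the 9 fell (0 without the 4 libraries of the female pattern). Of 6 T cell genes, Cd3e, Cd3g, Cd3d and Cd8a were under the filter. Cd4, which myeloid cells can also carry, was between 220 and 333 at P3 and fell to between 14.2 and 30.2 in adults (-3.76 ± 0.28, adjusted p = 5.47e-08). Il7r, the other T cell gene tested, went otherwise. It was between 5.06 and 23.7 at P3, between 20.4 and 95.1 at P14 and between 6.56 and 8.32 in adults. It rose from P3 to P14, fell from P21 to adult and did not pass the test from P3 to adult. The other Runt-domain genes fell over the span: Runx2, the factor of bone cells, from 5578 ± 1522 to 392 ± 42.1 (-3.79 ± 0.26, adjusted p = 2.3e-08) and Runx3 from 193 ± 57.5 to 14.1 ± 3.71 (-3.67 ± 0.46, adjusted p = 9.12e-06). Bone and cartilage genes fell over the same span (8 of 10, with Acan up), beside 34.3% of all genes. Runx2 and Runx3 were named after their values were seen.

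The upstream stretches of Pou4f1 and of both annotated starts of Runx1 are printed because these genes rose together at P14, and because counts per gene cannot tell which start of Runx1 was in use. Source, strand and capitals are as above.
Pou4f1, chr14:104468000-104468249: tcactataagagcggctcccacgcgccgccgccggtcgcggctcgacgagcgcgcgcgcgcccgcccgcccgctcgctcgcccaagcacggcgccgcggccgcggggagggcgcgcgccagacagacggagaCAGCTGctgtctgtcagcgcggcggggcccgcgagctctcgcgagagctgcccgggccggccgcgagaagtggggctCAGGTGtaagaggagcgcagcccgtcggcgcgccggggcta
Runx1, distal start, chr16:92826150-92826324: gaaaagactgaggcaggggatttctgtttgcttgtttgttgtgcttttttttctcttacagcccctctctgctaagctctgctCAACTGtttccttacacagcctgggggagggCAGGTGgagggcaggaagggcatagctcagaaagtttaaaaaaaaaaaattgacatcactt
Runx1, proximal start, chr16:92697330-92697579: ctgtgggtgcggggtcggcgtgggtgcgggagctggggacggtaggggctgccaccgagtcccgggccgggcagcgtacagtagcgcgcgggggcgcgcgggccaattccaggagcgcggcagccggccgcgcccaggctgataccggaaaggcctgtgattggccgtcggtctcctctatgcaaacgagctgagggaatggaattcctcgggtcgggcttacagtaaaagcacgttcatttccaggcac
The Pou4f1 stretch held 2 E-boxes and 47 CpG dinucleotides in 250 bases, against a median of 6 over all windows. That of the distal Runx1 start held 2 E-boxes and 0 CpGs in 175 bases, and that of the proximal start 0 E-boxes and 27 CpGs in 250 bases. The exact letters TGTGGT, searched on both strands as a RUNX site, were in none of the windows of the 8 factors with an entry, beside 14% of all windows. The exact letters AGATAA, searched likewise as a GATA site, were also in none, beside 9.99%. Other spellings of these sites were not searched, so their absence is not shown.

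Eya1 (chr1:14168958-14310199), a transcriptional coactivator and phosphatase, had the smallest ratio of highest to lowest library of the 9. Its levels were 5856, 5443 and 5594 at P3, 4746, 4396 and 4426 at P7 and 4618, 5148 and 4104 at P14. At P21 they were 5170, 4838 and 5358, and in adults 5505, 6548 and 6469. The P7 libraries all lay below those of P3, and the adult libraries above those of P21. The fall from P3 to P7 was 0.32 ± 0.09 on the log2 scale (adjusted p = 0.0178), and the rise from P21 to adult 0.27 ± 0.09 (adjusted p = 0.024). P3 and adult were not told apart (0.13 ± 0.09, adjusted p = 0.209, 95% confidence interval -0.06 to 0.32). Adults were above P7 (0.45 ± 0.09, adjusted p = 0.000526) and P14 (0.42 ± 0.09, adjusted p = 0.00183). P14 was below P3 (-0.29 ± 0.09, adjusted p = 0.0125).

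The calls of Eya1 from P3 to P7 and from P21 to adult were near the threshold. They were lost when any of several single libraries was left out. The values moved less: the early change was -0.29 without P3 replicate 1, and the late one 0.23 without P21 replicate 2. The early fall was lost without P3 replicate 1 (adjusted p = 0.0556), P7 replicate 5 (0.0647) or P7 replicate 6 (0.0553). The late rise was lost without P21 replicate 2 (0.0721), adult replicate 2 (0.0913) or adult replicate 3 (0.0832), and was 0.09 with quantile normalization (adjusted p = 0.433). It was also lost without the 4 libraries of the female pattern (0.413), in a fit of those ages alone (0.0764) and with a replicate block (0.0651). Six4, a homeodomain factor, rose from 674 ± 20.3 at P3 to 2558 ± 280 in adults (1.92 ± 0.13, adjusted p = 1.75e-08). Eya4, a relative of Eya1, fell from 5278 ± 606 to 3370 ± 93.3 (-0.64 ± 0.08, adjusted p = 9.05e-06). Six4 and Eya4 were named after their values were seen.

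Levels of different genes were compared per kilobase of merged exons (GENCODE M21). At P3 the mean level per kilobase was highest for Sox4 (785 ± 95.8, SD, n = 3), Isl1 (777 ± 51.5) and Eya1 (721 ± 26.8), whose libraries overlapped in part. In adults it was highest for Isl1 (1517 ± 227), then Eya1 (791 ± 74.4), Gata3 (489 ± 106), Prox1 (288 ± 42.9), Pou4f1 (232 ± 48.9), Runx1 (149 ± 18.2), Sox4 (122 ± 13.6), Sox11 (99.4 ± 20.7) and Neurod1 (24.5 ± 5.93). By these lengths Sox4 moved from the first place of the 9 to the seventh. Its merged exons hold 4795 bases, but its span in the deposited table is 2953 bases, so its place in adults depends on the length used. The exon length of the transcripts in use was not measured, so these levels are relative to the annotation.

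The neuron genes give a scale for the factors within each library. Of 16 neuron genes, 12 rose and none fell from P7 to P14, beside 24.3% of all genes that rose, with a median change of 1.42. Over the whole span 14 rose and none fell, beside 34.4% of all genes that rose, with a median of 2.001. Snap25 of the synaptic vesicle machinery rose from 11526 ± 777 at P7 to 66895 ± 7391 at P14 (2.53 ± 0.14, adjusted p = 2.77e-08), and Slc17a7 from 3624 ± 215 to 17135 ± 1115 (2.24 ± 0.13, adjusted p = 3.58e-08). Of the 16 neuron genes, 9 rose from P21 to adult, beside 25.4% of all genes. Fewer did so without the 4 libraries of the female pattern, a fit in which P21 keeps 1 library.

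Set against the mean log2 level of these 16 genes in the same library, the factors parted. The difference of Pou4f1 from that mean was -4.28 at P3, -4.99 at P7, -4.07 at P14 and -3.91 in adults. That of Prox1 was -3.06, -3.33, -3.46 and -2.74 at the same ages. For Runx1, whose own level had also risen, it was -2.05, -2.94, -3.16 and -3.17. For Sox4 it went from -0.26 at P3 to -4.77 in adults, and for Gata3 from 0.32 at P7 to -3.07 in adults. For Isl1, whose own level had risen, it went from -0.55 at P3 to -1.43 in adults. These differences are descriptions of each library with no test.

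**Figure D4:**
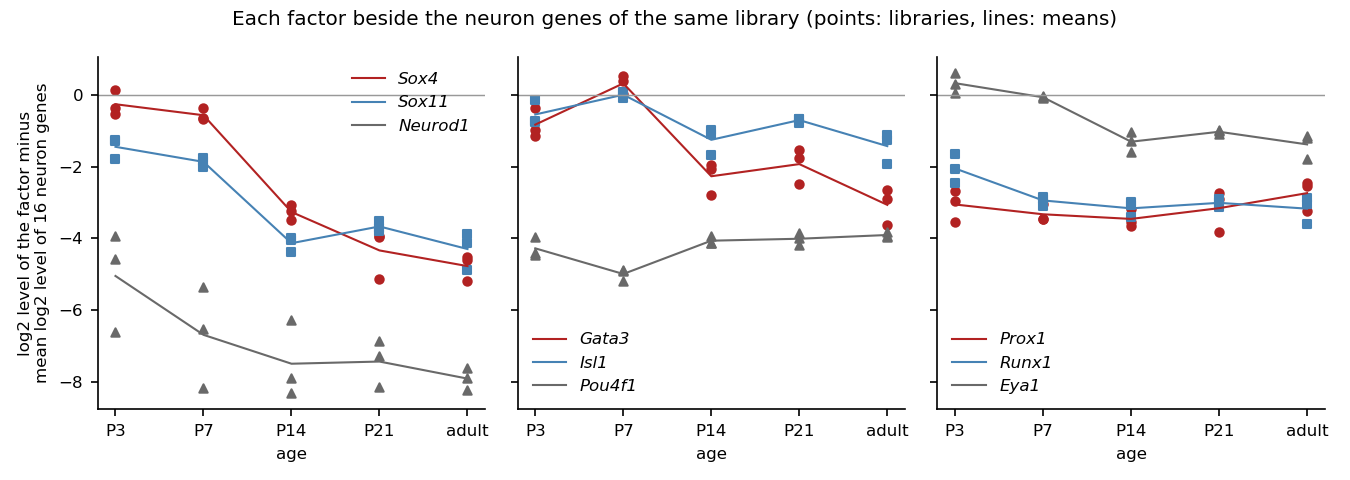
Log2 level of each factor minus the mean log2 level of 16 neuron genes in the same library (vertical axis) by age, with 1 point per library and lines through the means. Lines that fall are factors that gained less than the neuron genes or declined, as for Sox4, Sox11 and Gata3 after P7, and the Pou4f1 line ends near where it began.

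The relatives and cofactors of the 9 factors changed in both directions. Of 33 on the list, 31 were tested, since Neurog1 and Neurod4 were under the filter. From P3 to P7, 5 rose and 7 fell, beside 15.4% and 12.8% of all genes. From P7 to P14, 9 rose and 13 fell, beside 24.3% and 23.8%. From P14 to P21 none rose and 4 fell, beside 3.29% and 6%. From P21 to adult 11 rose and 7 fell, beside 25.4% and 24.1% of all genes. Fewer were called without the 4 libraries of the female pattern, a fit in which P21 keeps 1 library. Over the whole span 8 rose and 17 fell, beside 34.4% and 34.3%, with a median of -0.43 against -0.01 for all genes. Among those that fell were the E proteins that pair with Neurod1: Tcf12 went from 7195 ± 156 at P3 and 7480 ± 399 at P7 to 3650 ± 466 at P14 (P14 against P7 -1.04 ± 0.08, adjusted p = 2.86e-07), and Tcf3 from 4583 ± 284 at P3 to 1695 ± 54.9 in adults (-1.43 ± 0.08, adjusted p = 4.71e-09). Id2, an inhibitor of E proteins, rose to P7 and then declined: it was at 8406 ± 371 at P3, 16522 ± 620 at P7, 7210 ± 1029 at P14 and 2974 ± 145 in adults. Among the risers over the span were Pou4f2, Zfpm2, Six4, Isl2, Prox2, Runx1t1 and Eya3.

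Other transcription factors of neurogenesis, 21 on the list and 19 tested, fell more often than they rose from P3 to adult (11 and 5), with a median of -0.66. Beside them, 34.3% of all genes fell and 34.4% rose. The 5 that rose were Scrt1, Scrt2, Esrrg, Myt1 and Myt1l. Scrt1, a zinc-finger repressor of neurons, went from 729 ± 28.6 at P7 to 4404 ± 366 at P14 (2.59 ± 0.18, adjusted p = 1.47e-07) and to 14289 ± 1907 in adults. From P3 to P7 it fell by 0.70 ± 0.18 (adjusted p = 0.0114). Esrrg, an orphan nuclear receptor, rose from 2170 ± 303 at P7 to 6041 ± 403 at P14 (1.48 ± 0.14, adjusted p = 1.98e-06). The 11 that fell include the early otic and neurogenic factors Sox2, Insm1, Nhlh1, Nhlh2, Hes6, Hmx2, Hmx3 and Lmx1a.

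**Figure D5:**
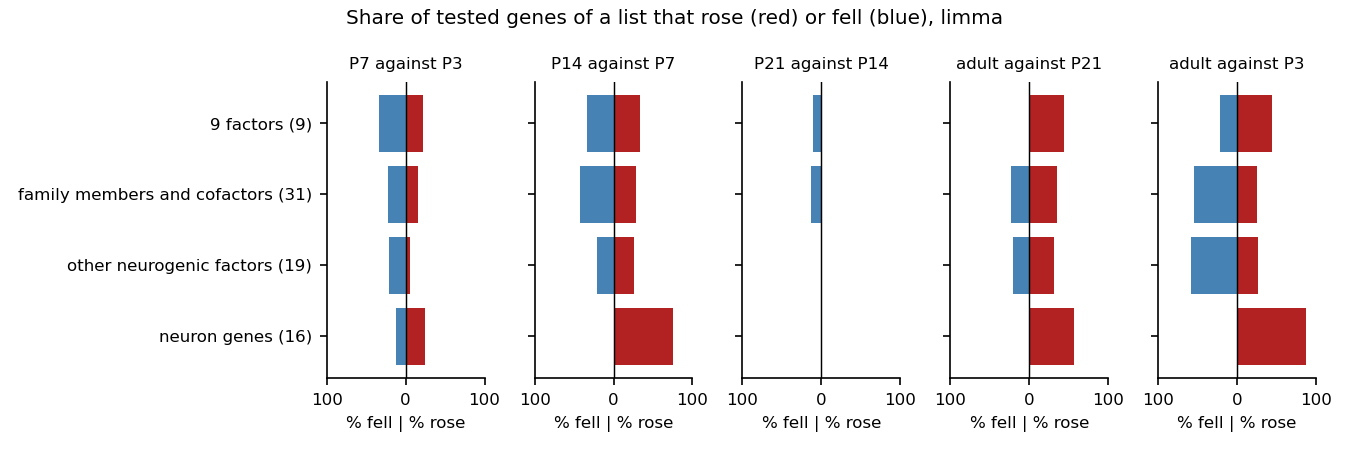
Share of the tested genes of 4 lists (rows, with the number tested) that rose or fell (bars right and left of 0, in percent) in 5 comparisons of ages. The neuron genes have no bar to the left from P14 on, whereas the 9 factors and their relatives have bars on both sides in 3 and 4 of the 5 comparisons.

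Growing-neuron genes were read beside Sox4 and Sox11. Of 10, 6 fell and 3 rose from P3 to adult, with a median of -1.21, and 5 fell and 3 rose from P7 to P14. Beside them, 34.3% of all genes fell and 34.4% rose over the span, and 23.8% fell and 24.3% rose from P7 to P14. Dpysl3, Tubb2b and Marcksl1, of growth cones and the young cytoskeleton, were among the growing-neuron genes that fell in both. Cd24a, Ncam1 and Nnat rose from P3 to adult, and Ncam1, Nnat and Stmn1 from P7 to P14. The sum of the 10 ranged from 58568 to 69059 at P3 and from 64039 to 76409 in adults. Cell cycle genes fell, 10 of 10 from P7 to P14, beside 23.8% of all genes. Their sum went from between 9546 and 9857 at P7 to between 2592 and 5176 at P14. Sox4 and Sox11 are known from dividing and from postmitotic cells, and the part of each in their fall was not tested. Over the 15 libraries Sox4 was most like Thoc2 (r = 0.986), Pde7b (0.986) and Erf (0.985), and Sox11 most like Zfp184 (0.965), Zfp783 (0.961) and Cldn6 (0.959).

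The closest patterns for the other factors were as follows. Gata3 was most like Gal3st3 (r = 0.951), Wnt9a (0.924) and Fam160a1 (0.917), and Isl1 most like Nectin4 (0.958), Serpini1 (0.955) and Cndp1 (0.950). Runx1 was most like Eif4e3 (0.980), Pank2 (0.977) and Khnyn (0.962), and Eya1 most like Prdm4 (0.902), Tchp (0.902) and Zmym3 (0.899). The libraries share ages, so r mostly follows the differences between ages, and no p is given. Among the 9 factors themselves, Pou4f1 went with Runx1 (r = 0.875) and Prox1 (0.871) and against Sox4 (-0.855), and Sox4 went with Sox11 (0.738).

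The authors' deposited table gives signed fold changes for the pairs of the 4 postnatal ages. It lists Gata3 at 2.36 (P7 against P3) and -2.49 (P14 against P7), Pou4f1 at 4.59 and Sox4 at -2.69 for P14 against P7. For Neurod1 the authors' deposited table has -3.22 for P7 against P3 with an unadjusted p of 0.0271.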

How the data were processed

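The 15 libraries were grouped by the age in the labels, 3 libraries to each of 5 ages. Low-quality RNA was left out and a TruSeq kit used, per the labels' protocols. Per the submitters' processing notes, Partek, TopHat2 and DESeq2 were used with mm10. How reads were counted, whether strand was used and which annotation served are not given in the sources used here. The deposited signal per library is a read count divided by 1 size factor, since dividing by 1 value per library turned 99.94% of positive entries into whole numbers (to within 0.1). The authors also deposited, per the file headers, a p-value and a signed fold change (a score read as such) for pairs of the 4 postnatal ages. These are printed only where the authors' table is named.

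From the deposited signal, log2(value + 1) was tested with limma 3.58.1 (R 4.3.3; trend and robust empirical Bayes) in 1 fit of 15 libraries (10 residual degrees of freedom, ages as the sole terms). The filter asked for 10 or more in 3 or more libraries and left 16723 genes, called two-sided at a Benjamini-Hochberg adjusted p under 0.05. Other pairs of ages came from the same fit, adjusted alike. Named were the 9 factors, up to 3 genes per list with the smallest joint adjusted p, list genes under the filter, and the 3 genes most like each factor by Pearson r, among tested genes with a mean of at least 100 and no predicted symbol. Members and lists were chosen with earlier results of these data known. Further list genes were named after their values were seen, as stated. Alternatives were pseudocounts, filters, scalings, edgeR 4.0.16 and DESeq2 1.42.0 on the recovered reads, a sex covariate, fewer libraries, and a replicate block. The limma code was tested on simulated data. Intervals are 95% and floors cover counting error only. Replicate numbers name different animals, and libraries sharing a number did not deviate together (r from -0.229 to 0.319 over 18 pairs).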

Additional observations from a re-analysis of the deposited data

How the results depend on the processing

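Over 45 combinations of factor and comparison, 22 were called. Of 1197 values under alternatives, 1125 kept their direction and their side of the threshold, 36 lost a call and 9 gained one. The other 27 changed sign, with no call before or after: 6 of Sox11, 1 of Isl1, 1 of Neurod1 and 2 of Sox4 for adult against P21, 5 of Isl1, 2 of Neurod1 and 2 of Eya1 for P14 against P7, 3 of Neurod1, 2 of Prox1 and 2 of Runx1 for P21 against P14, and 1 of Eya1 for adult against P3. The count of factors called was 6 of 9 in every alternative run for P14 against P7 and 8 in every one for the joint test. For P7 against P3 it was 5 and ranged from 3 to 6 when 1 library was left out (3 without P3 replicate 1, P7 replicate 5 or P7 replicate 6). For P21 against P14 it was 1, ranged from 0 (without P14 replicate 3) to 2 (without adult replicate 1) with 1 library left out, was 2 with quantile normalization and with DESeq2, and was 0 without the 4 libraries of the female pattern and with only both ages in the fit. For adult against P21 it was 4, ranged from 2 (without adult replicate 2) to 5, and was 1, namely a fall of Gata3, without those 4 libraries. For adult against P3 it was 6 and ranged from 6 to 7. The cause of these shifts was not tested, apart from the fewer libraries in such fits. Genes called overall moved most for P21 against P14, from 1553 to 2519 with DESeq2, 754 without the 4 libraries, 137 with only both ages, 631 without P14 replicate 3 and 979 without P14 replicate 2. For P7 against P3 they went from 4703 to 3124 without P3 replicate 3 and 3080 without P7 replicate 5, and for adult against P21 from 8266 to 3987 without the 4 libraries and 5211 with only both ages. The count tests on recovered reads called 4741 (edgeR) and 5625 (DESeq2) genes for P7 against P3 and 7994 and 8481 for P14 against P7. With the replicate number as a replicate block, in a fit without P7, 1, 3 and 6 factors were called for P21 against P14, adult against P21 and adult against P3, and 645 genes for the first, against 1, 4 and 6 factors and 977 genes without the block. These numbers only name the samples. Neurod1, with 15 to 347 normalized counts, is limited by the spread between libraries more than by depth.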
